A study of Mus musculus with 46 samples.

Results

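Mouse embryonic fibroblasts (MEF) driven towards induced pluripotent stem cells by Oct4 and the fusion NanogBiD were compared between day 5 (D5) and day 7 (D7). The comparison rests on 4 of the 46 samples in the series, 2 libraries at D5 and 2 at D7, which were chosen by their labels and not by any measured value. The fusion, called NanogN70 in the labels, carries a short N-terminal piece of SS18 that binds BRG1, the motor of the BAF chromatin remodelling complex, ahead of full-length Nanog. The fibroblasts came from OG2 mice, which carry a GFP reporter driven by Oct4 regulatory sequence, and both factors were delivered by pMXs retroviruses in 2 rounds of infection. From D0 the cells were kept in iCD3 medium, and the study's methods move them to N2B27 medium with inhibitors and LIF on D7 or at another planned time, so it is not known here whether the D7 libraries precede or follow a change of medium. The same step with native Nanog and Oct4 (NanogWT, 2 libraries per day) is given as the control, and every group of the time course shares the Oct4 vector. Nothing in the labels says that replicates came from separate cultures, so p-values measure the spread between libraries. That spread was estimated over all 31 time-course libraries and not from those of D5 and D7 alone.

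Reprogramming runs from the loss of fibroblast programmes, through a change towards epithelial character and faster division, to the activation of the endogenous pluripotency network, in which transcription factors such as Sox2, Esrrb and Sall4 keep each other active. Wnt signalling supports self-renewal of pluripotent cells and, in the embryo, also drives the posterior growth zone, where T, Cdx factors, Nkx1-2 and Tbx6 mark progenitors of the trunk and tail. Both programmes were followed gene by gene. Levels are FPKM, fragments scaled to the length of the gene model and to the mapped fragments of the library, and paired values are replicate 1 and then replicate 2. Differences are D7 minus D5 on the log2(FPKM + 1) scale, which understates the change of genes with low values. A gene was called at a limma adjusted p under 0.05 and a difference of at least 1 (2-fold) in size, and only called genes are said to have risen or fallen.

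The 4 libraries held 13404 to 13718 genes at 1 FPKM or more, and their relative depth lay between 1.00 and 1.10. Replicates correlated across genes at r = 0.990 at D5 and 0.976 at D7, against 0.956 to 0.972 between libraries of different days. The D7 replicates differed from each other along the GC content of the transcripts, with a Spearman rho of -0.438 across genes for replicate 2 minus replicate 1, and the step itself had a rho of -0.341 with GC content. For NanogWT, replicate 2 minus replicate 1 had a rho of -0.515 at D7 and 0.31 at D5, and the step had one of 0.188. The difference between the NanogBiD and NanogWT steps had a rho of -0.373. Genes are not independent replicates, so these values are descriptions. In bulk RNA a change in the number of cells of a type and a change in RNA per cell cannot be told apart.

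With NanogBiD 349 genes rose (2.07% of the 16842 tested) and 86 fell (0.511%) between D5 and D7, while the median difference over all tested genes was 0.01. By the adjusted p without the fold limit 1049 genes (6.23%) were higher and 440 (2.61%) lower. With NanogWT 11 genes rose (0.0653%) and 0 fell, or 23 (0.137%) and 0 without the fold limit, with 684 genes at an unadjusted p under 0.05 against 4176 with NanogBiD. The genes that rose had a median difference of 1.27 with NanogBiD and 0.01 with NanogWT. The difference between the steps, NanogBiD minus NanogWT, was itself called for 170 genes with a positive value (1.01%) and for 42 with a negative one (0.249%). Steps are signed, so a negative value includes genes that fell more with NanogBiD. Among the 349 risen genes 151 (43.3%) were in the first of these sets, and among the 86 fallen genes 13 (15.1%) were in the second; the contrasts share the NanogBiD libraries, so these shares are descriptions. A fit to the 4 libraries alone, which leaves only 2 residual degrees of freedom, called 0 genes, with 4097 at an unadjusted p under 0.05 and a lowest adjusted p of 0.0784. Leaving out a library gave 244 (without D7 replicate 2) to 448 (without D7 replicate 1) risen genes. The fallen genes then numbered 33 (without D5 replicate 1), 36 (without D7 replicate 2), 39 (without D5 replicate 2) and 207 (without D7 replicate 1).

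**Figure D1:**
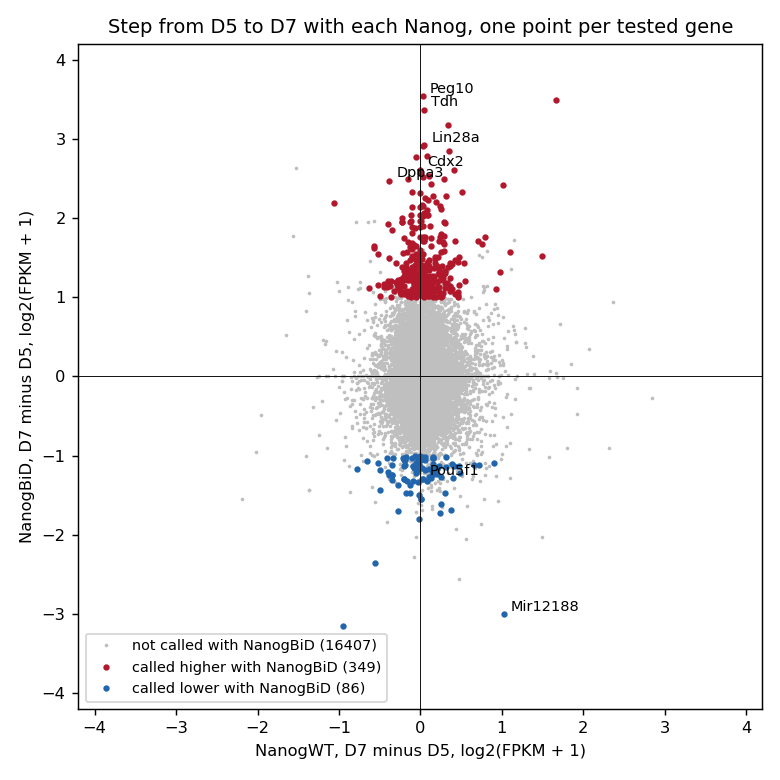
Each point is a tested gene, with its D7 minus D5 difference under NanogWT on the horizontal axis and under NanogBiD on the vertical axis, both on the log2(FPKM + 1) scale. The 349 genes called higher with NanogBiD (red) and the 86 called lower (blue) have median differences of 1.27 and -1.17 on the vertical axis and of 0.01 and -0.02 on the NanogWT axis.

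Peg10 had the largest rise of all called genes. This imprinted gene of retrotransposon origin, needed for the placenta (chromosome 6, 4747306 to 4760517 in RefSeq GRCm38.p6), went from 11.8 and 12.5 FPKM at D5 to 142 and 161 at D7, a difference of 3.54 (SE 0.40, adjusted p = 1.94e-05). The libraries of both days were far apart. With NanogWT it stood at 5.87 and 4.03 FPKM at D5 and at 4.30 and 5.75 at D7, and the difference between the steps was 3.51 (SE 0.57, adjusted p = 0.00298). Its D7 level was also above the 20.4 FPKM of the mouse embryonic stem cell (mES) library.

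The 9 next largest rises were those of Mir7005, Tdh, Fzd10, Lin28a, Wnt8a, Cdx1, Meox1, Igfbp2 and Nkx1-2, of which the homeobox genes are described with the mesendoderm and posterior genes. Tdh, the threonine dehydrogenase on which mouse embryonic stem cells depend (chromosome 14, 63492347 to 63509092), went from 0.658 and 0.591 FPKM to 15.0 and 16.6, a difference of 3.37 (SE 0.46, adjusted p = 0.000148). Lin28a, an RNA-binding protein that blocks let-7 maturation (chromosome 4, 134003330 to 134019196), went from 2.78 and 2.86 to 27.6 and 28.2 FPKM, a difference of 2.92 (SE 0.29, adjusted p = 3.19e-06). In both genes the D7 replicates were close together and the NanogWT libraries stayed below 0.2 FPKM on both days. Fzd10, a Wnt receptor, went from 2.53 and 2.52 to 30.4 and 31.3 FPKM (3.17, SE 0.51, adjusted p = 0.000745). Wnt8a, a Wnt ligand, went from 2.40 and 3.08 to 29.3 and 24.9 FPKM (2.91, SE 0.29, adjusted p = 3.07e-06). Igfbp2, a secreted binding protein of insulin-like growth factors, went from 2.75 and 3.46 to 31.1 and 23.3 FPKM (2.77, SE 0.33, adjusted p = 3.04e-05). The second largest row of all was Mir7005 (3.49, adjusted p = 0.00214), a small RNA gene that lies inside Lama5, a laminin gene that rose as well (1.76, adjusted p = 0.00069); FPKM of so short a row is uncertain.

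**Figure D2:**
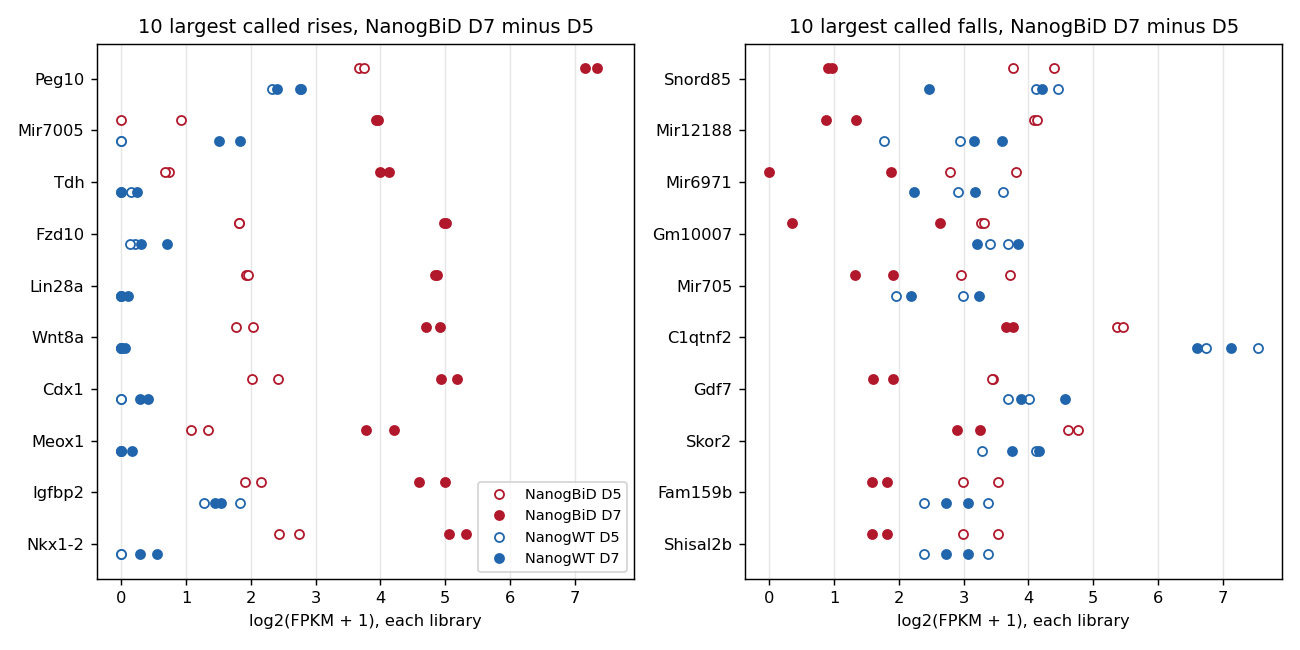
Levels of the 10 genes with the largest called rise (left) and fall (right) as log2(FPKM + 1), each circle a library, open for D5 and filled for D7, red for NanogBiD and blue for NanogWT. The NanogBiD libraries of D5 and D7 do not overlap in any of these 20 rows, as they do not in any of the 435 called genes (2.58% of those tested), against 29.9% of all tested genes with both D7 libraries above both D5 libraries and 27.4% with both below.

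Among 21 transcription factors of pluripotency 7 rose and 0 fell, against 2.07% and 0.511% of all tested genes, with a median difference of 0.75. Sox2, an HMG-box factor that binds DNA with Oct4 (chromosome 3, 34649995 to 34652461), went from 1.81 and 1.45 FPKM to 15.3 and 12.5, a difference of 2.50 (SE 0.45, adjusted p = 0.00187). It still stood far below its 200 and 177 FPKM at D10 and the 248 FPKM of mES. Tfap2c, an AP-2 factor, went from 0.884 and 0.724 to 7.17 and 6.69 FPKM (2.14, adjusted p = 0.000139). Sall1 (1.90), Sall4 (1.71), Dppa2 (1.48), the orphan nuclear receptor Esrrb (1.47) and the MYB factor Mybl2 (1.10) also rose, the last with a call that was lost whichever of the 4 libraries was left out. Dppa2 was listed at 0 in both D5 libraries and at 1.47 and 2.15 FPKM at D7. Sall1 and Tfap2c were the members whose step also differed from that under NanogWT, by 1.87 (adjusted p = 0.0267) and 2.24 (adjusted p = 0.00722). For Sox2 the difference between the steps was 2.21 with an adjusted p of 0.0855, so a difference between the Nanog forms was not established for this gene at this sample size.

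Other factors of the naive state did not pass. Klf4 stood at 12.5 and 9.85 FPKM at D5 and at 14.4 and 7.11 at D7 (-0.11, adjusted p = 0.891), with overlapping libraries. Klf2 (1.01, adjusted p = 0.136), Zfp42 (0.73, adjusted p = 0.12), Prdm14 (0.52, adjusted p = 0.179) and Nr0b1 (0.90, adjusted p = 0.125) had higher means at D7 but no call. Tfcp2l1 was at 14.7 and 21.7 FPKM and then at 30.5 and 27.1, past the adjusted p of 0.0397 but with a difference of 0.65, under the fold limit. The D10 minus D3 means use none of the D5 and D7 libraries, but the estimate of the spread was shared with them. By that comparison all 21 members were called higher, against 15.4% of all tested genes.

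The 24 effectors and signals of pluripotent cells had 13 rises and 0 falls, against 2.07% and 0.511% of all tested genes, with a median of 1.25. Dppa5a, an RNA-binding protein of stem cells (chromosome 9, 78367052 to 78368199), was at 0.290 FPKM and at 0 in the D5 libraries and at 4.11 and 7.87 at D7 (2.57, SE 0.41, adjusted p = 0.000735). Its level at D10 was 706 and 361 FPKM, so D7 marked only its onset. Dppa3, a factor that protects maternal methylation marks, was listed at 0 in both D5 libraries and stood at 3.84 and 5.34 FPKM at D7 (2.47, SE 0.49, adjusted p = 0.00381). L1td1, an RNA-binding protein derived from a LINE-1 element, went from 2.42 and 2.66 to 19 and 16.8 FPKM (2.42, SE 0.35, adjusted p = 0.000324). Other risen members were Utf1 (1.87), Lin28b (1.64), Trim71 (1.52), Gdf3 (1.51), Alpl (1.32), Lefty2 (1.29) and the glucose transporter Slc2a3 (1.22), together with Tdh and Lin28a. Nodal and its co-receptor were not called. Nodal stood at 0.295 and 1.03 FPKM at D7 (0.56, adjusted p = 0.26), and the co-receptor Tdgf1 was at 23.0 and 21.3 and then at 49.1 and 39.4 FPKM (0.96, adjusted p = 0.0808). Fgf4, the growth factor of the inner cell mass, was at 0.777 and 1.28 FPKM at D7 (0.96, adjusted p = 0.0496), just under the fold limit. Without D7 replicate 2 the list had 9 rises. Dppa3 was then not called (2.28, adjusted p = 0.0551).

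Genes of the primed and formative state gave 4 rises and 0 falls among 12 tested, with a median of 0.48. Of all tested genes 2.07% rose and 0.511% fell. The de novo DNA methyltransferase Dnmt3b (chromosome 2, 153649411 to 153687730) went from 0.821 and 0.892 FPKM to 6.33 and 6.88 (2.03, SE 0.24, adjusted p = 2.51e-05). Lef1, a transcription factor that carries the Wnt signal (1.76), the tight-junction gene Cldn6 (1.34) and the zinc-finger factor Zic2 (1.15) also rose. Otx2 stood at 0.371 and 0.132 FPKM at D7 and was not called. Of 10 DNA methylation and Tet enzymes, a list that does not hold Dnmt3b, only Tet1 rose, from 0.914 and 1.25 to 2.79 and 3.55 FPKM (1.00, adjusted p = 0.0114), a call that was lost without D7 replicate 2 or D5 replicate 1.

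The mesendoderm list had 5 rises and 0 falls among 12 tested genes, against 2.07% and 0.511% of all tested genes, with a median of 0.82. The step differed from that under NanogWT for the same 5 genes. The T-box factor T, or Brachyury (chromosome 17, 8434423 to 8442496), went from 0.679 and 0.813 FPKM to 3.71 and 4.2 (1.5, SE 0.12, adjusted p = 1.7e-07). Cdx2, a homeobox factor of the trophectoderm and of the posterior axis (chromosome 5, 147300900 to 147307249), went from 0.202 and 0.354 to 7.29 and 6.28 FPKM (2.61, SE 0.13, adjusted p = 4.57e-10). It was listed at 0 in all 4 NanogWT libraries of these days. Nkx1-2, a homeobox gene of caudal progenitors, went from 4.39 and 5.68 to 38.9 and 32.5 FPKM (2.61, SE 0.23, adjusted p = 8.35e-07). Cdx1 went from 3.04 and 4.34 to 35.3 and 29.6 FPKM (2.84, SE 0.30, adjusted p = 6.7e-06), and Tbx6 from 0.541 and 0.239 to 2.26 and 2.33 (1.25, SE 0.15, adjusted p = 3.03e-05). The D5 and D7 libraries were separate in each of the 5 genes, as in every risen gene. Eomes, a T-box gene of the primitive streak and trophoblast, stayed between 0.250 and 0.619 FPKM in the 4 libraries (0.10, adjusted p = 0.819).

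A longer list of posterior body axis genes was put together after the values had been seen and is given as a description. Of its 26 tested members 18 rose and 0 fell, against 2.07% and 0.511% of all tested genes, with a median of 1.36. Cdx4, the third Cdx gene, went from 0.0388 and 0.660 FPKM to 4.92 and 5.67 (2.26, SE 0.16, adjusted p = 3.77e-08). Meox1, a homeobox gene of the somites (chromosome 11, 101877510 to 101894354), went from 1.51 and 1.11 to 12.7 and 17.6 FPKM (2.79, SE 0.15, adjusted p = 8.99e-10). Gbx2, a homeobox gene induced by LIF and Wnt signals (2.33), the Wnt agonist Rspo3 (1.66), the somite factor Tcf15 (1.37), Wnt5b (1.35), Sp8 (1.32), the Notch modulator Lfng (1.14) and the presomitic factor Msgn1 (1.03) were among the others. Evx1 (0.82, adjusted p = 0.00151) and Fgf8 (0.67, adjusted p = 0.00101) passed the adjusted p but not the fold limit. Wnt5a, a ligand that fibroblasts also express, was at 21.3 and 23.5 and then at 18.2 and 19.4 FPKM (-0.24, adjusted p = 0.441).

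Among the 39 tested Hox genes 4 rose and 0 fell, against 2.07% and 0.511% of all tested genes. Hoxb1 went from 1.39 and 1.95 to 14.5 and 14.1 FPKM (2.53, SE 0.24, adjusted p = 1.48e-06). It belongs to the anterior end of its cluster, and its libraries of the 2 days were far apart. Hoxa9 (1.25) and Hoxa2 (1.11) were among the others, and the median of the Hox genes was 0.12. Among 14 tested neural patterning genes Foxb1 alone rose (1.43, adjusted p = 0.000534), and among 12 of the primitive endoderm 0 were called, with a median of -0.32. Over all tested genes 2.58% were called, so 0 calls in a list of 12 lies near that share.

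In the list of Wnt, BMP, FGF and LIF response genes 3 of 21 rose and 0 fell. Of all tested genes 2.07% rose and 0.511% fell. Notum, a secreted Wnt inhibitor that Wnt itself induces, went from 0.835 and 0.848 to 7.01 and 4.91 FPKM (1.90, SE 0.21, adjusted p = 1.72e-05), and its step differed from that under NanogWT by 1.78 (adjusted p = 0.00389). Id2, a target of BMP signalling, rose by 1.34 and the Wnt effector Tcf7 by 1.03. Axin2 was at 8.70 and 10.5 and then at 19.05 and 14.8 FPKM (0.75, adjusted p = 0.0785), and Sp5 at 25 and 22.8 and then at 57.5 and 32.1 (0.82, adjusted p = 0.382), so these common Wnt targets did not pass. Without D7 replicate 2 or without D5 replicate 2 only 1 member of the list was called.

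After D7 the risen genes took different courses, which are given as a description because it reuses the D7 libraries. Of the 349 risen genes 104 were at least 2-fold higher again at D10 (29.8%, against 8.40% of all tested genes), 42 were at least 2-fold lower (12.0%, against 7.92%) and 203 were neither. Among the 104 that went on rising 78 exceeded their MEF level by 4-fold or more in mES, and among the 42 that fell back 5 were. Tdh reached 96.0 and 64.4 FPKM at D10. Cdx2 was back at 0.126 and 0.316 FPKM, T at 0.523 and 1.01, Nkx1-2 at 1.52 and 3.77 and Meox1 at 1.25 and 1.78. Wnt8a stood at 59.9 FPKM in the single D8 library, above both D7 libraries, and then at 14.5 and 10.6 FPKM at D10 and at 1.80 and 3.53 at D12. Lin28a stayed at 24.2 and 24.9 FPKM at D10.

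**Figure D3:**
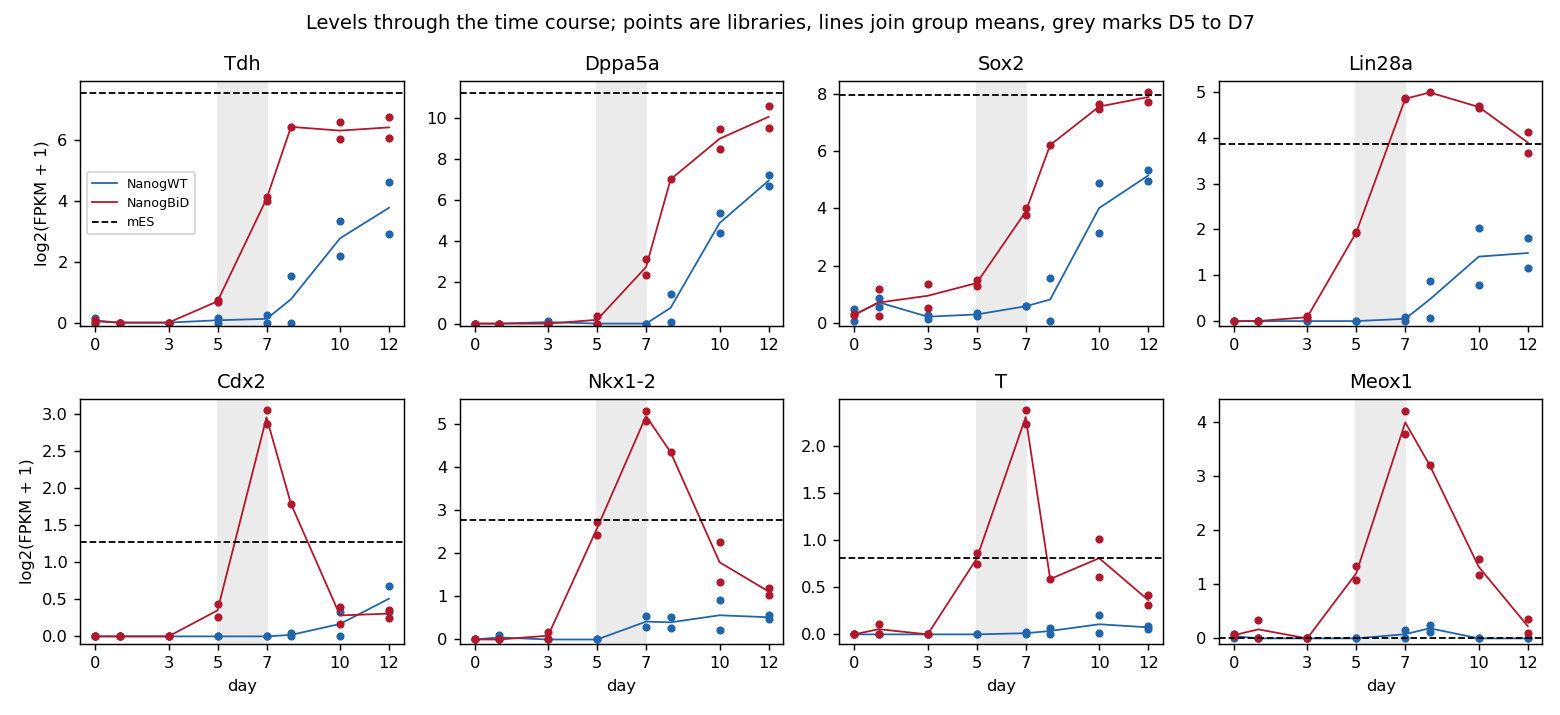
Levels of 8 genes as log2(FPKM + 1) on each sampled day, red for NanogBiD and blue for NanogWT, with a point per library, lines through the group means, a dashed line at the mES library and grey shading from D5 to D7. In the upper row Tdh, Dppa5a and Sox2 go on rising after D7 and Lin28a holds its level to D10, whereas Cdx2, Nkx1-2, T and Meox1 in the lower row are highest at D7 with NanogBiD.

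The libraries of D3 and D10, which do not enter the D5 and D7 means, were set beside these calls. Both comparisons share the estimate of the spread of each gene, which favours the same genes of small spread in both. The shares of D10 minus D3 calls are therefore descriptions and not an independent test. Of the 349 risen genes 296 (84.8%) were called higher by D10 minus D3 and 0 lower, against 15.4% and 9.96% of all tested genes, where the median difference was 0.13 and, without the fold limit, 31.8% were higher and 20.7% lower. Of the 86 fallen genes 64 (74.4%) were called lower and 2 higher. The 53 risen genes without a late call included Cdx2 (0.28, adjusted p = 0.0747), Cdx4 (0.19), Tbx6 (0.15) and Msgn1, the last being listed at 0 in the libraries of D3 and D10. In position, 145 of the 349 (41.6%) had an mES level 4-fold or more above that of MEF and 12 (3.44%) one 4-fold or more beneath it, against 6.57% and 6.32% of all tested genes. Among the fallen genes 3 were higher in mES and 16 (18.6%) lower. The single mES library and 2 MEF libraries allow no test here.

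Genes that appeared from below 1 FPKM in both D5 libraries to at least 2 FPKM in both D7 libraries numbered 62 of the 37108 in the table with NanogBiD, and 12 went the other way. With NanogWT the numbers were 9 and 3, and 0 genes appeared in both. Without small RNA rows the NanogBiD numbers were 58 and 8. Among these 8, H2bc9 and Hist1h2bh are the same values under a newer and an older symbol, as are H4c8 and Hist1h4h. Under limits of 0.5 and 5 FPKM only B130016D09Rik, Cdh1 and Cdx2 appeared and 0 disappeared. Cdh1 encodes E-cadherin, the adhesion molecule of epithelial cells whose appearance marks the mesenchymal to epithelial transition (chromosome 8, 106603350 to 106670247). It went from 0.182 and 0.409 FPKM to 6.78 and 6.07 (2.52, SE 0.31, adjusted p = 5.33e-05), and its step differed from that under NanogWT by 2.49 (adjusted p = 0.00622). Epcam, an adhesion molecule of epithelia and stem cells, went from 5.02 and 4.17 to 17.1 and 16.4 FPKM (1.67, SE 0.34, adjusted p = 0.00441) and the epithelial splicing factor Esrp1 from 0.218 and 0.118 to 1.31 and 2.17 (1.21, SE 0.22, adjusted p = 0.00184). The other 13 of 16 tested epithelial genes were not called, Krt8 among them at 3.88 and 2.96 FPKM at D7 (0.85, adjusted p = 0.233). Of all tested genes 2.07% rose.

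Of 34 fibroblast and mesenchymal genes 0 fell by the fold limit and 1 rose, near the 0.511% and 2.07% of all tested genes. The risen gene was Snai1, a repressor of Cdh1 that was at 2.86 and 4.26 and then at 11.1 and 6.87 FPKM (1.11, adjusted p = 0.0246). Snai1 was not called without D7 replicate 1, D5 replicate 1 or D5 replicate 2. The intermediate filament gene Vim went from 3095 and 2670 to 1600 and 1501 FPKM (-0.89, adjusted p = 0.0077), and Ccn1 (-0.85), Col5a1 (-0.74) and Col5a2 (-0.54) also passed the adjusted p below the fold limit. Their D5 and D7 libraries were separate, and 27.4% of all tested genes had both D7 libraries below both D5 libraries. Zeb1, Zeb2 and Twist1 were not called, with differences of 0.12, -0.05 and -0.51. Without D7 replicate 1 the list had 0 rises and 1 fall. Over D10 minus D3 it had 13 falls and 3 rises.

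Of 26 tested AP-1 and other somatic transcription factors 3 fell and 0 rose, with a median of -0.27. Of all tested genes 0.511% fell and 2.07% rose. Maff, a small MAF protein, went from 29.0 and 26.0 to 10.0 and 8.55 FPKM (-1.47, SE 0.27, adjusted p = 0.00197). Cebpd went from 16.6 and 16.5 to 6.53 and 6.45 FPKM (-1.23, SE 0.37, adjusted p = 0.0461) and Fos from 16.9 and 21.6 to 8.73 and 9.02 (-1.03, SE 0.30, adjusted p = 0.0381). The calls of Cebpd and Fos were lost whichever of the 4 libraries was left out. Junb (-1.45, adjusted p = 0.138) and Egr1 (-1.58, adjusted p = 0.0687) were not called.

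Of the delivered factors Pou5f1 fell, and Nanog and Ss18 passed the adjusted p below the fold limit. Pou5f1, which encodes Oct4 (chromosome 17, 35506032 to 35510777), went from 5377 and 5428 to 2683 and 1804 FPKM (-1.30, SE 0.36, adjusted p = 0.0307). With NanogWT it was at 4963 and 5546 and then at 6550 and 4321 FPKM, and the difference between the steps was -1.32 (adjusted p = 0.212). Nanog went from 1225 and 1122 to 711.9 and 723.2 FPKM (-0.71, adjusted p = 0.0373). Ss18, whose N-terminal piece the fusion carries, went from 117 and 118 to 74.2 and 74.1 FPKM (-0.66, adjusted p = 0.0183), against 29.4 to 33.6 in the NanogWT libraries of these days. FPKM do not separate vector from endogenous transcripts. The Pou5f1 call was lost without D7 replicate 2, D5 replicate 1 or D5 replicate 2 (adjusted p = 0.263, 0.146 and 0.141).

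Secreted proteins, receptors and transcriptional regulators were among the falls. C1qtnf2, a secreted C1q/TNF-related protein, went from 40.1 and 43.1 to 12.6 and 11.6 FPKM (-1.70, SE 0.43, adjusted p = 0.0164), and the BMP-family ligand Gdf7 from 9.92 and 9.82 to 2.76 and 2.03 (-1.69, SE 0.38, adjusted p = 0.00864). The Wnt receptor Fzd8 went from 18.7 and 20.2 to 6.33 and 6.16 FPKM (-1.50, SE 0.20, adjusted p = 0.000113), opposite to Fzd10. The prostaglandin receptor Ptger4 (-1.25), the ligand Tgfb1 (-1.17), the forkhead factor Foxf2 (-1.13) and the mesenchymal factor Osr1 (-1.10) fell as well. Skor2, a transcriptional corepressor, went from 23.5 and 26.1 to 8.49 and 6.43 FPKM (-1.62, SE 0.33, adjusted p = 0.00422), and Fam159b and Shisal2b, which are the same values under an older and a newer symbol, fell by 1.55 on the log2 scale. Gm10007, at 5.23 and 0.273 FPKM at D7, had replicates far apart (-1.80, adjusted p = 0.0456). Among the 10 largest falls Snord85, Mir12188, Mir6971 and Mir705 were rows of 63 to 82 bases inside other genes. The fallen genes had a median GC content of 54.5% and a median transcript length of 1721 bases, against 49.8% and 3157 over all tested genes, and with the GC and length trend of each library removed 58 of the 86 were still called, as were 270 of the 349 risen genes. The part of GC content in these calls was not tested beyond that.

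Some genes of replication and mitosis rose. Of 25 cell cycle and replication genes 11 rose and 0 fell, against 2.07% and 0.511% of all tested genes, with a median of 0.91. Both D7 libraries lay above both D5 libraries in all 25, against 29.9% of all tested genes. The replication helicase was represented by Mcm2 (1.15), Mcm3 (1.25), Mcm5 (1.21), Mcm6 (1.28) and Mcm7 (1.30). Mcm6 went from 12.4 and 11.8 to 30.1 and 31.4 FPKM (SE 0.19, adjusted p = 0.000512), Mcm3 from 17.3 and 18.1 to 44.5 and 42.7 (SE 0.24, adjusted p = 0.0034) and Mcm5 from 12.3 and 11.7 to 33.5 and 25 (SE 0.29, adjusted p = 0.013). The Mcm5 call was kept only without D7 replicate 2 among the fits that left out 1 of the 4 libraries. Cdc6, which loads the helicase (1.18), the ribonucleotide reductase subunit Rrm2 (1.23), the topoisomerase Top2a (1.29), the cyclins Ccna2 (1.16) and Ccnb1 (1.24) and the mitotic kinase Bub1 (1.52) were the others. The steps of Mcm6, Cdc6, Rrm2 and Bub1 also differed from those under NanogWT, by 1.45, 1.26, 1.33 and 1.62 (adjusted p = 0.0101, 0.029, 0.026 and 0.0241). Mki67, a common marker of dividing cells, was at 12.7 and 14.8 and then at 29.1 and 21.2 FPKM (0.81, adjusted p = 0.0882). Among 15 cell cycle inhibitors and p53 targets 0 were called, with a median of -0.25. Over all tested genes 2.58% were called, so 0 calls in a list of 15 lies near that share.

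The promoters of the helicase genes are shown because a short E2F motif, bound by the factors that switch on replication genes, was found in 3 of the 20 cell cycle genes that had a promoter window, and those were Mcm3, Mcm5 and Mcm6. Windows of 300 bases, 250 before and 50 after the start, were taken from RefSeq GRCm38.p6 and matched by symbol to 233 of the 349 risen, 56 of the 86 fallen and 11953 of all 16842 tested genes. The stretches are given 5′ to 3′ on the strand of the gene, as the 250 bases before the start at chr8:75109259-75109508 (plus strand) for Mcm5 and chr1:128359706-128359955 (minus strand) for Mcm6, and as 30 bases around a match after the start at chr1:20820263-20820292 (minus strand) for Mcm3. Capitals mark the motif, TTTGGCGC or its reverse complement GCGCCAAA.
Mcm3: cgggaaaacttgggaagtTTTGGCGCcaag
Mcm5: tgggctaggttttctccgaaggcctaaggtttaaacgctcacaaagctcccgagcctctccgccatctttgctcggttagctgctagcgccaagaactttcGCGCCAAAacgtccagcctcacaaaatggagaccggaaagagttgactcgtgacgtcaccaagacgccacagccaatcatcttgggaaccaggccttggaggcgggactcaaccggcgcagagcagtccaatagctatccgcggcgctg
Mcm6: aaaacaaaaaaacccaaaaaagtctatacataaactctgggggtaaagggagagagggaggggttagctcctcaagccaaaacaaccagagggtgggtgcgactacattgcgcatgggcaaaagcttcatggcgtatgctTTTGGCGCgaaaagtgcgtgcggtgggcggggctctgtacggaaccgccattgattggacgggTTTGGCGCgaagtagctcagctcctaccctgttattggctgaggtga

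A gene counted if any of its windows held the string, so all shares here are of genes with a window. The string TTTGGCGC was found in 13 of the 233 risen genes (5.58%), 0 of the 56 fallen genes and 116 of the 11953 tested genes (0.97%). Other E2F strings differed less, as TTCGCGCC was in 2.15% of the risen, 3.57% of the fallen and 1.13% of all genes, and TTTCGCGC in 2.15%, 1.79% and 0.761%. The matches shown lay 149 bases before the start in Mcm5, 110 and 47 before it in Mcm6 and 38 after it in Mcm3. The cell cycle element ATTTGAA was in 9.87% of the risen genes, 8.93% of the fallen genes and 3.91% of all. The CCAAT box was in 53.2%, 35.7% and 43.3%. For the Wnt effectors the string CTTTGAT was in 3.43% of the risen genes and 3.12% of all, and the octamer ATGCAAAT bound by Oct4 was in 3.00% and 1.83%. The SOX string CATTGTT was in 0.858% of the risen genes and 2.43% of all, the AP-1 string TGANTCA in 5.58% and 6.32%, and the TCF/LEF core CTTTGA in 13.7% and 14.3%. In all, 15 short strings were searched on both strands, some of which overlap, and a match in these windows is a description and not a binding site.

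Metabolic genes moved in part. Slc2a1, the main glucose transporter (chromosome 4, 119108745 to 119137330), went from 30.7 and 37.1 to 131 and 153 FPKM (2.04, SE 0.20, adjusted p = 2.71e-06), and its step differed from that under NanogWT by 2.15 (adjusted p = 0.000347). Pdk1, a kinase that keeps pyruvate out of the mitochondrial cycle, went from 4.18 and 8.16 to 15.7 and 14.3 FPKM (1.22, SE 0.21, adjusted p = 0.0013). The other 17 of 19 glycolysis genes were not called at this step, Hk2 among them (0.31, adjusted p = 0.313), whereas 17 of the 19 were called higher by D10 minus D3. In threonine, serine and glycine metabolism 2 of 16 genes rose, against 2.07% of all tested genes, with a median of 0.55. These were Amt of the glycine cleavage system (1.13, adjusted p = 0.0245) and Shmt1 (1.08, adjusted p = 0.0358). The list had 0 calls without D7 replicate 1, D5 replicate 1 or D5 replicate 2, and without D7 replicate 2 Shmt1 was not called either.

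In cholesterol synthesis 3 of 19 genes had a step that differed between the Nanog forms, against 1.26% of all tested genes. With NanogBiD 0 of 19 genes were called, near the 2.58% of all tested genes, and the median was -0.39. With NanogWT 0 were called, near the 0.0653% of all tested genes, and the median was 0.40. The difference between the steps was called for 3 genes, among them Lss, which makes lanosterol (-1.31, adjusted p = 0.0127), and Dhcr7, the last enzyme of the pathway (-1.08, adjusted p = 0.0474). Lss was at 34.3 and 32.7 FPKM and then at 21.5 and 21.3 with NanogBiD, and at 30.7 and 27.5 and then at 46.6 and 48.3 with NanogWT. The libraries of the 2 days were apart in both forms, in opposite directions.

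**Figure D4:**
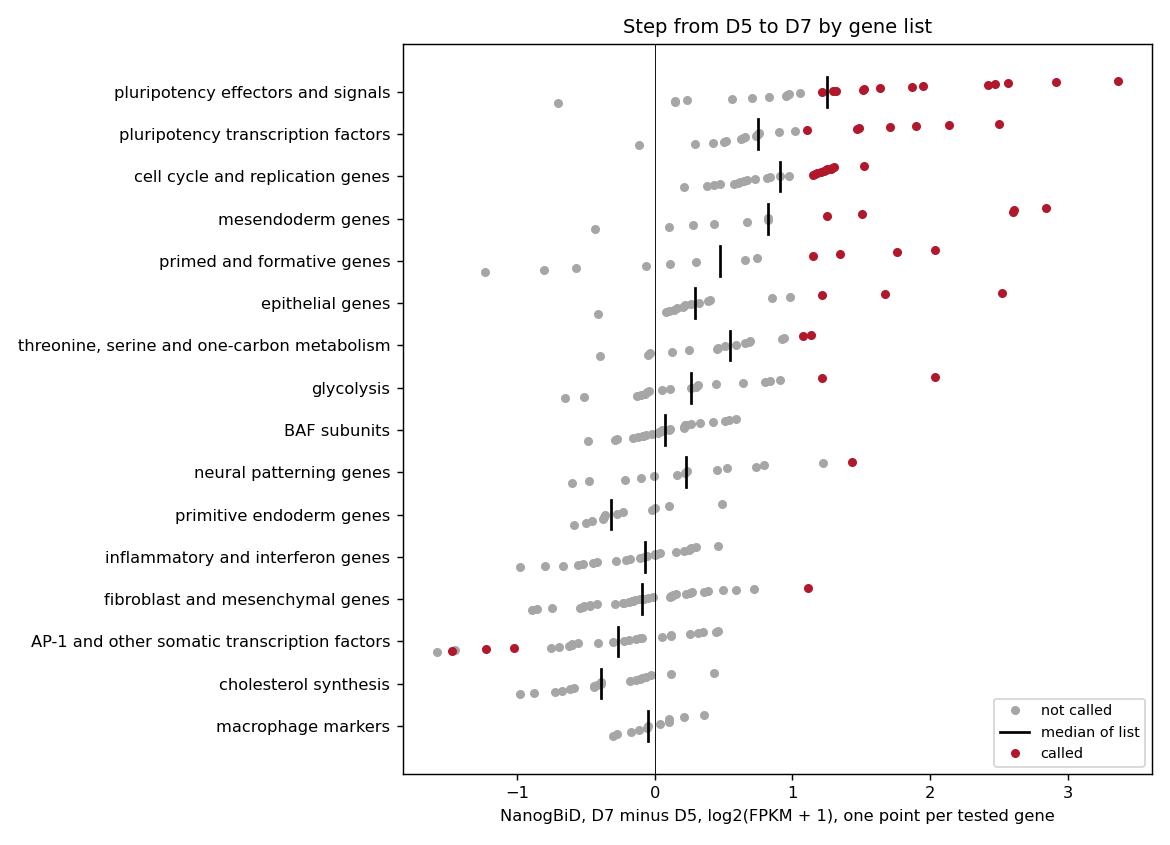
D7 minus D5 differences with NanogBiD on the log2(FPKM + 1) scale for the tested genes of 16 lists, each point a gene, red where called and grey where not, with a black bar at the median of the list. Medians run from 1.25 in the pluripotency effectors and 0.91 in the cell cycle genes to -0.27 in the AP-1 and other somatic factors and -0.39 in cholesterol synthesis.

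The BAF subunits, the complex that the fusion is built to engage, gave 0 calls among 26 genes, with a median of 0.08. Over all tested genes 2.58% were called, so 0 calls in a list of 26 lies near that share. By the limma adjusted p without the fold limit 1 subunit was higher and 0 lower. Both D7 libraries lay above both D5 libraries in 12 subunits and below in 2, against 29.9% and 27.4% of all tested genes. Smarca4, which encodes BRG1, was at 38.2 and 43.0 FPKM at D5 and at 47.6 and 30.6 at D7 (-0.09, adjusted p = 0.827), with overlapping libraries. Arid1a, a DNA-binding subunit, was at 20.5 and 22.6 and then at 30.0 and 24.9 FPKM (0.33, adjusted p = 0.392). In the lists of inflammatory and interferon genes (24 tested), germline genes (9) and genes of the 2-cell stage (6) 0 were called, against the same 2.58%.

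Markers of other cell types were low. Over all tested genes 2.58% were called, so 0 calls in lists as short as these lies near that share. The 11 macrophage markers summed to 9.25 to 13.3 FPKM at D5 and 7.69 to 14.2 at D7, with 0 called. The 7 keratinocyte markers summed to 9.08 to 9.88 and 8.07 to 8.49 FPKM, the 9 muscle markers to 15.8 to 19 and 7.80 to 15.6, and the 6 erythroid markers to 1.86 to 3.14 and 1.28 to 3.45, with 0 called in each of these lists. In the endothelial list, which summed to 3.45 to 4.33 and 5.63 to 6.71 FPKM, the junction gene Esam rose (1.06, adjusted p = 0.00158). In the adipocyte list, at 2.22 to 3.19 and 5.31 to 6.08 FPKM, the lipase gene Lpl rose (1.19, adjusted p = 0.0164), with 4 of the 7 markers at 0 in all 4 libraries. The Esam call was lost without D5 replicate 1, and the Lpl call whichever of the 4 libraries was left out. The part of such cells in the results was not tested.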

How the data were processed

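RNA was extracted with FreeZol and sequenced as paired Illumina reads. Per the labels and the study's methods the authors trimmed reads with Trim Galore 0.6.4, aligned them to mm10 with HISAT2 2.2.1 and made the deposited FPKM values per gene with StringTie 2.2.1. The annotation and the strand setting were not given in the sources used here, and the sources name different library kits. Fragment totals are unknown, so only relative depth (1.00 to 1.10 in the 4 libraries) was read from the values. The study used GFOLD, which needs reads. Instead limma 3.58.1 in R 4.3.3 was fitted to log2(FPKM + 1) with an intensity trend over the 31 time-course samples in 16 groups, for the 16842 of 37108 genes that reached 1 FPKM in 2 or more of these samples, with Benjamini-Hochberg adjustment over all of these. That choice lets all groups share 1 estimate of the spread. Tables and figures were made in Python 3.11.15.

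Genes named by rule were the 10 called genes with the largest rise and fall in the step and in the difference of the steps, and called members of the lists. The gene lists and tests were chosen with earlier results of these data known, and the posterior body axis, imprinted, HMG and heterochromatin, Sprr2 and cornified envelope, Hox and histone lists after the values had been seen. Positions are RefSeq GRCm38.p6 gene extents. The fit was tested on simulated data. A transcript table of other samples was not used here. Some genes that were counted are not reported here by name. Alternatives were another pseudocount, no filter and a stricter one, TPM scaling, quantile normalization, a fit to the compared groups alone, a replicate block, no intensity trend, each library left out, removal of GC content and length trends (added after seeing the data, as were the crossed pairing and the removal of identical and small RNA rows), and other fold limits.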

Additional observations from a re-analysis of the deposited data

Results flagged for a closer look

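Of the 212 genes whose step was called different, 43 were named by rule or belong to a list other than those put together after the values had been seen, and 42 of these are given here. Their D7 minus D5 step differed between NanogBiD and NanogWT by the limma test of the difference between the steps, at an adjusted p under 0.05 and a size of at least 1. The values are log2(FPKM + 1) differences, NanogBiD step minus NanogWT step. Since the genes were named partly for the NanogBiD step, and the contrasts share libraries, they are values and not independent support.

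Among genes of pluripotent cells and early embryos the difference was 3.32 for Tdh, 2.87 for Lin28a, 2.85 for Dppa3, 2.57 for Dppa5a, 2.24 for Tfap2c, 1.87 for Sall1, 1.77 for Lin28b and 1.51 for Trim71. The Dppa3 difference was not called when any 1 of the 8 libraries was left out, and it was not alone in this. Leaving out a library lost 7 (without NanogBiD D7 replicate 1) to 26 (without NanogWT D7 replicate 1) of the 43 calls, a pseudocount of 0.1 lost 29, and 7 of the 43 were kept in every setting tried. Among primed genes it was 1.94 for Dnmt3b, 1.34 for Cldn6 and 1.09 for Zic2.

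Among posterior and Wnt genes it was 2.88 for Wnt8a, 2.71 for Meox1, 2.61 for Cdx2, 2.49 for Cdx1, 2.19 for Nkx1-2, 1.78 for Notum, 1.49 for T and 1.27 for Tbx6. Among growth, adhesion and other genes it was 3.51 for Peg10, 2.83 for Igfbp2, 2.65 for the growth regulator Gpc3, 2.49 for Cdh1, 2.15 for Slc2a1, 1.34 for Foxb1 and 1.16 for Esam. Among replication and mitosis genes it was 1.62 for Bub1, 1.45 for Mcm6, 1.33 for Rrm2 and 1.26 for Cdc6.

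Negative differences were seen for Mir12188 (-4.03), Mir1893 (-2.60), the hexose transporter Slc2a6 (-1.99), Skor2 (-1.88), Tmem191c (-1.83), LOC108167890 (-1.78), the acetyl-CoA synthetase Acss2 (-1.70), Vmo1 (-1.68), 0610040J01Rik (-1.57), Foxf2 (-1.55), Lss (-1.31) and Dhcr7 (-1.08). Such a value does not mean a smaller change with NanogBiD. In Skor2 the step was -1.62 with NanogBiD and 0.26 with NanogWT.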

How the results depend on the processing

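No named gene changed direction with a call under any setting, but calls were lost. The 107 genes named for the NanogBiD step include Nanog and Ss18, which were not called, and the other 105 were called. All 105 lost the call in the compared groups alone, 10 to 34 lost it when a library was left out and 16 with a pseudocount of 0.1. No call was kept in every setting, since the compared groups alone called 0 genes. For the NanogBiD step the 349 risen genes became 529 with a pseudocount of 0.1, 1049 without a fold limit, 42 with a limit of 4-fold and 0 in the compared groups alone, and 244 to 448 when a library was left out. The 86 fallen genes became 56 without a filter, 440, 3 and 0 under the same limits and groups, and 33 to 207 when a library was left out. For NanogWT the 11 risen genes became 3 with a pseudocount of 0.1, 7 with TPM scaling, 23 without a fold limit, 0 with a limit of 4-fold, 0 in the compared groups alone and 2 to 10 when a library was left out, while the fallen genes stayed at 0 to 1. The 170 larger steps under NanogBiD became 60 with a pseudocount of 0.1, 98 in the compared groups alone, 35 with a limit of 4-fold and 53 (without NanogWT D7 replicate 1) to 222 (without NanogBiD D7 replicate 1). The 42 smaller steps became 8, 16 and 2 in these settings, 26 without a filter, 21 with TPM scaling, 79 with GC content and length trends removed, and 3 to 80 when a library was left out. Larger and smaller steps are signed here, so the smaller ones include deeper falls with NanogBiD. The causes were not tested.

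For D10 minus D3 the 2595 higher and 1678 lower genes became 5350 and 3491 without a fold limit, 683 and 406 with a limit of 4-fold, and 2474 to 3020 and 1643 to 1813 when a library was left out. With quantile normalization they were 2069 and 2066, and with GC content and length trends removed 2062 and 2061. TPM scaling raised the median of all genes in this comparison from 0.13 to 0.22, and the other two settings turned it to -0.02 (quantile normalization) and -0.01 (GC content and length trends removed). The neural patterning list had 4 rises in place of 1 with a pseudocount of 0.1.

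The labels give replicate numbers but nothing that ties same-numbered samples. Their deviations correlated at -0.073 between NanogBiD D5 and D7, -0.200 between NanogWT D5 and D7 and 0.118 between NanogBiD D3 and D10. With a replicate block the NanogBiD step had 356 rises and 109 falls, which held all 349 and all 86, and the NanogWT step had 11 rises. The difference of the steps was then called positive for 225 genes and negative for 67. With the NanogWT D7 numbers crossed, a pairing added after seeing the data, the NanogWT step also had 11 rises.

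At 2-fold and 8-fold limits 225 and 82 of the 349 risen genes were higher in mES and 24 and 9 lower, and 8 and 1 of the fallen genes were higher and 31 and 7 lower. With limits of 0.5 and 5 FPKM 3 genes appeared and 0 disappeared with NanogBiD. Depth in reads is unknown, so values near 0 FPKM have no counting interval.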

Other observations

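Imprinted genes other than Peg10 were among the rises. In a list of imprinted genes, put together after the values had been seen, 7 of 32 tested members rose and 0 fell, with a median of 0.10. Of all tested genes 2.07% rose and 0.511% fell. Peg3, a zinc-finger gene expressed from the paternal allele, went from 3.55 and 5.25 to 23.2 and 22.6 FPKM (2.16). Phlda2, a restrainer of placental growth, went from 1.25 and 1.29 to 5.63 and 8.05 FPKM (1.77), and Mest from 70.5 and 57.3 to 176 and 232 (1.65), although Mest overlaps Copg2 and reads of the pair may be split. H19 (-0.02) and Igf2 (-0.25) were not called, and Cdkn1c, a growth-restraining inhibitor, was at 120 and 100.5 and then at 68.9 and 66.6 FPKM (-0.69, limma adjusted p = 0.0333).

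Genes of HMG proteins and heterochromatin, a list also put together after the values had been seen, had 9 rises and 0 falls among 16. The shares of all tested genes were 2.07% and 0.511%, and the median of the list was 1.04. The nucleosome-binding gene Hmgn2 was at 31.2 and 26.3 and then at 78.1 and 177 FPKM, with D7 replicates far apart. Hmgb2, a DNA-bending protein, went from 14.5 and 15.3 to 43.6 and 51.7 FPKM (1.61), and Cbx5, which encodes the heterochromatin protein HP1 alpha, from 20.8 and 23.6 to 49.4 and 54.2 (1.19). Without D7 replicate 2 the list had 4 rises, and with GC content and length trends removed it had 5. Hmgn2, Hmgb1 and Cbx3 have many near-identical processed copies, so their values are uncertain.

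In a list of Sprr2 and other cornified envelope and epithelial barrier genes, chosen in the same way, 7 of 10 tested members rose and 0 fell, beside the keratinocyte markers with 0 called. Of all tested genes 2.07% rose and 0.511% fell. With a pseudocount of 0.1 the list had 3 rises, and with a filter of 5 FPKM 3 of 4 tested members. The epithelial gene Lad1 went from 0.186 and 0.117 to 2.98 and 2.84 FPKM (1.76). Sprr2a1, Sprr2a2 and Sprr2a3 are near-identical and count as less than 3 separate results. Of 61 tested histone genes 0 rose and 3 fell, against 2.07% and 0.511% of all tested genes. Hist2h3b was among the falls, at 17.9 and 13.3 and then at 4.92 and 6.62 FPKM (-1.29).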
